A study of Mus musculus with 2 samples.

Results

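The genes described here are the mouse histone genes with the systematic symbols H1f, H2ac, H2bc, H3c and H4c followed by a number. Of 55357 genes in the count tables, 70 carry such a symbol. The 61 with at least 10 unique molecular identifiers (UMIs, counts of captured RNA molecules) over both libraries were kept. They comprise 8 genes of the linker histone H1, 15 of H2A, 15 of H2B, 11 of H3 and 12 of H4. H2ac12, with 14 UMIs, and H1f6, with 29, lay just inside this minimum, and H1f8, with 3, H2bc23, with 2, and H1f9, with 2, just outside it. The members were chosen on these totals, which are given as description. By their RefSeq promoters, 47 members lie on chromosome 13 and 6 on chromosome 3. H1f0, on chromosome 15, and H1f10, on chromosome 6, lie outside the histone gene clusters.

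The cells came from colon tumours of mice, and each genotype gave 1 library of single-cell RNA. The KO-labelled library came from animals with floxed Ecm1 alleles (ECM1Flox/Flox) and Villin-Cre, a Cre driven by a promoter that is active in intestinal epithelium. The WT-labelled library had the same floxed alleles and no Cre. The labels give no age, tumour model or number of animals.

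Histones package DNA: H2A, H2B, H3 and H4 form the core of the nucleosome, and H1 binds the DNA between nucleosomes. Most clustered genes are transcribed while DNA is replicated, and their mRNAs end in a conserved stem-loop bound by Slbp in place of a poly(A) tail. Some of them can also give polyadenylated mRNA, above all in cells that have left the cell cycle, and capture by oligo-dT favours mRNA with a tail.

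The stem-loop was looked for in the GENCODE M21 transcript models, because it marks mRNAs that can end without a tail. A consensus of 16 letters, identical to the capitals of the H1f2 site, was searched on the sense strand with up to 2 mismatches. It was found in models of 36 of the 61 members and in 153 of 58797 protein-coding models (0.260%). The sites of 4 genes that the results turn on are shown, with the element in capitals.
H1f2: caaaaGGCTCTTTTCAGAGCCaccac
H2ac24: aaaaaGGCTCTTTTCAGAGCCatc
H2ac8: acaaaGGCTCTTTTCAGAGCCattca
H4c4: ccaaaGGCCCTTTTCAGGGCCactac
The H2ac24 model ends 3 bases past the element, whereas those of H2ac8, H4c4 and H1f2 run on for 151, 770 and 840 bases. In 15 members the model ran at least 100 bases past the element, and these held 36.4% of the members' UMIs. The 21 members whose model ended sooner held 18.5%. The 25 without a match, H2bc4, H1f5 and H4c9 among them, held 45.05%. No match says only that these letters are not in the model.

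The libraries differed in depth and in other ways than the label. The KO-labelled library had 4896 barcodes and 75024663 UMIs, and 4233 of its barcodes were kept as cells. The WT-labelled library had 9512 barcodes, 59189995 UMIs and 8262 cells, with 17 barcode sequences in common. Ecm1 was at 40.7 counts per 1000000 UMIs of the class (CPM) in KO-labelled epithelial-like cells and 34.9 in WT-labelled ones, a ratio of 1.17 (1.08 to 1.26), so its level does not bear out the label. Where its UMIs lie relative to the deleted part is not known, so this does not settle the genotype. Xist had 103646 and 7 UMIs and the Y-linked Ddx3y 0 and 6175, so sex and genotype cannot be told apart. With 1 library per genotype there is no test between genotypes. All intervals are 95% intervals that cover counting error only.

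A few genes gave most of the 190432 histone UMIs. H2bc4, a core H2B gene, held 40133 (21.1%), the linker gene H1f2 27250, the core gene H2ac24 19188 and H1f0, a linker variant known from differentiated cells, 16407. With H2ac8, H4c4, H1f5, H1f4, H1f10 and H4c9, these 10 genes held 80.9%. H1 gave 38.4% of the UMIs, H2B 25.1%, H2A 19.8%, H4 12.1% and H3 4.52%. These are shares of UMIs, not of mRNA per length. A single gene, H2bc4, gave 83.9% of the H2B UMIs, whereas the leading H3 gene, H3c6, gave 24.03% of its family.

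Near-identical copies make some values uncertain, since the counting could split or drop their reads. H2ac24 shared 92.9% of its 60-base windows with another histone gene, H2ac18 89.0%, H4c17 89.5% and H4c18 85.2%. In all, 27 members shared at least 50% of their windows, and these held 16.3% of the UMIs.

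Of the cell classes named from marker genes, 7 had at least 50 cells in both libraries. In epithelial-like cells the summed histone level was 1774 CPM (1763.5 to 1785) in the KO-labelled and 1542 (1527 to 1556) in the WT-labelled library. In the same order of libraries, mast-like cells had 1697 and 1549, plasma-like cells 1377.5 and 722, B-like cells 808 and 845, T-like cells 802 and 829 and monocyte/macrophage-like cells 792 and 424. Epithelial-like cells were thus highest of the 7 classes in the KO-labelled library and mast-like cells in the WT-labelled one. Neutrophil-like cells were lowest in both, at 379.8 (332 to 432) and 389 (371 to 408). The intervals of epithelial-like and mast-like cells overlapped in both libraries, as did those of B-like and T-like cells, and in the KO-labelled library those of monocyte/macrophage-like cells with both. In KO-labelled mast-like cells, 63.6% of the histone UMIs came from 5 of 70 cells. Outside the 7 classes, the clusters that stayed unnamed had 1848 and 2096 CPM. In these sums, fewer cells that carry a gene and less RNA per cell cannot be told apart.

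**Figure D1:**
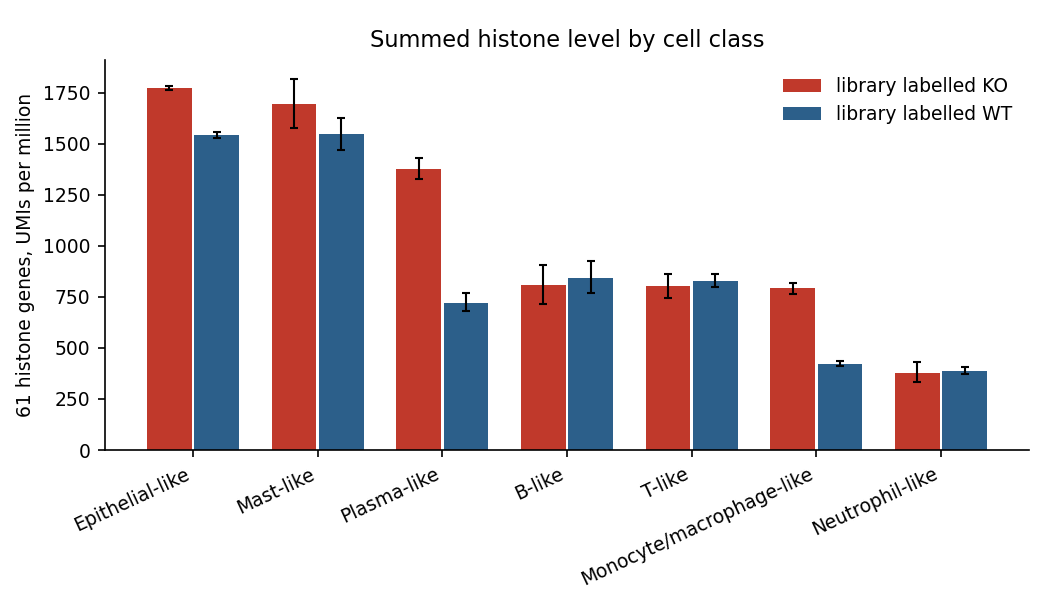
Summed level of the 61 histone genes (CPM, vertical axis from 0) in the 7 classes, red for the KO-labelled and blue for the WT-labelled library, with exact 95% Poisson intervals. Epithelial-like cells reach 1774 and 1542 CPM and neutrophil-like cells 379.8 and 389.

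The share of cells with a histone UMI was highest in epithelial-like cells of both libraries. With each cell thinned to 1000 UMIs, 71.8% (69.9 to 73.7) of KO-labelled and 67.4% (65.2 to 69.5) of WT-labelled epithelial-like cells held at least 1, against 31.3% (24.85 to 38.3) and 28.7% (26.8 to 30.7) of neutrophil-like cells. In the WT-labelled library monocyte/macrophage-like cells were lower still, at 24.9% (22.6 to 27.35), and mast-like cells had 46.3% (34 to 58.9) and 33.9% (27.8 to 40.5). Unthinned, the epithelial-like and neutrophil-like shares were 97.98% and 96.35% against 60.2% and 45.2%, at median depths of 20401 and 11704 against 2843 and 1912 UMIs. Thinning left out 55 and 76 epithelial-like and 6 and 105 neutrophil-like cells.

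Neutrophils are short-lived cells that no longer divide, and few genes made up their histone UMIs. H2bc4 gave 43.3% and 31.4% of them in the KO-labelled and WT-labelled libraries, H1f2 22.5% and 28.0%, H4c9 8.66% and 10.1% and H2bc6, another H2B gene, 5.195% and 6.55%. H2ac24, which gave 10.0% and 11.2% in epithelial-like cells, had 3 and 21 UMIs in neutrophil-like cells. For each UMI of H2ac24 there were 33.3 and 26.3 of H2bc4 in the neutrophil-like class and 2.245 and 1.96 in the epithelial-like class, so the 2 genes did not keep 1 ratio across classes. At 1000 UMIs per cell, 17.95% and 11.1% of neutrophil-like cells held H2bc4 and 1.03% and 0.281% held H2ac24. H2bc6 was at 19.7 and 25.5 CPM among neutrophil-like cells, against 10.9 and 11.2 among epithelial-like ones. The 10 epithelial markers, Epcam and Krt8 among them, summed to 490 and 335 CPM in neutrophil-like cells, none of them at 0, against 13418 and 10812 in epithelial-like cells.

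**Figure D2:**
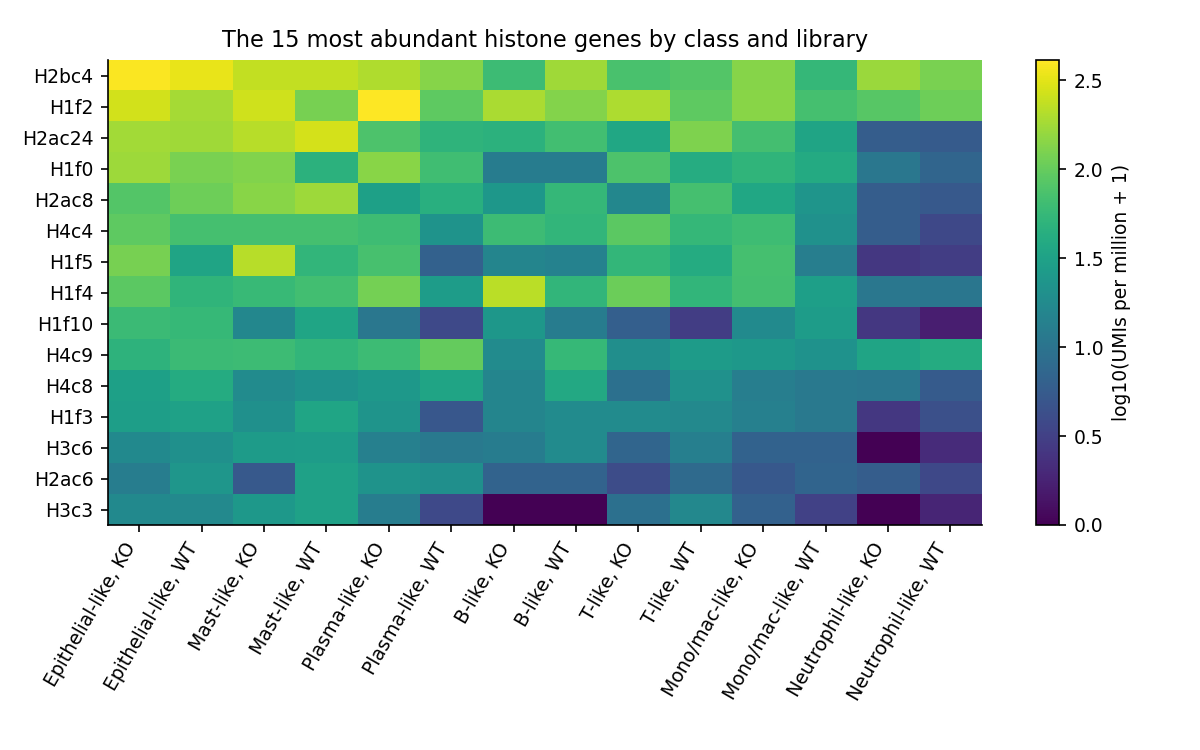
Level of the 15 histone genes with the most UMIs (rows) in each class and library (columns), as log10 of CPM plus 1. In the neutrophil-like columns H2bc4 and H1f2 lie high on the scale and H2ac24 much lower.

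Within epithelial-like cells, histone genes differed with the state of the cell. Cells were thinned to 2000 UMIs and sorted by lists that hold no member: 28 DNA replication genes such as Pcna, and 22 genes of G2 and mitosis such as Top2a. The 596 KO-labelled and 563 WT-labelled cells with 0 UMIs of both lists (both-0 cells) had 1363.5 and 1109 CPM of all members. The 128 and 37 cells with 5 or more of each (both-high cells) had 4227 and 4544, ratios of 3.10 (3.04 to 3.16) and 4.10 (3.95 to 4.25). The level was higher in the both-high cells of both libraries. These cells were also deeper before thinning, with medians of 36903.5 and 25059 UMIs against 18457 and 10872. Epithelial-like clusters also differed in the lists. The mitosis list was at 2718.5 and 2057 CPM in the cluster led by Tgm4 and Gkn3, and at 456 and 540 in that led by Pnliprp2 and Sox11. H2bc4 was at 344 and 342 CPM in the former and at 590 and 333 in the latter. The states pool all epithelial-like clusters, and the part of cluster in these ratios was not tested.

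The linker genes did not move together. H1f5, a linker histone of dividing cells, went from 3.88 to 657 CPM between both-0 and both-high KO-labelled cells and from 3.34 to 274 in WT-labelled ones, ratios of 169 (128.5 to 228) and 82 (54.4 to 129). H1f1 went from 1.06 to 56 and from 2.54 to 26.9, and H1f4 from 44.5 to 266 and from 35.5 to 188. H1f2 had the opposite direction, from 369 to 176 and from 213 to 122.5, ratios of 0.477 (0.444 to 0.513) and 0.5745 (0.474 to 0.6905). Thus 3 of these 4 H1 genes were higher in the both-high cells of both libraries and H1f2 was lower. H1f0 went from 148 to 261 and from 77.6 to 209.

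Of the 5 families, H2A had the largest ratio, 27.8 (25.7 to 30.1) and 22.5 (20.7 to 24.5). H2ac24 went from 14.7 to 828 CPM in KO-labelled and from 23.9 to 1123 in WT-labelled cells, and H2ac8 from 12.9 to 396 and from 22.2 to 758. H2A genes thereby went from 3.885% to 34.85% of the histone UMIs in KO-labelled cells and from 8.96% to 49.2% in WT-labelled cells. In H3, H3c3 went from 1.22 to 72.7 and from 1.202 to 112.5. In H4, H4c4 went from 42.3 to 325 and from 45.8 to 256, and H4c9 from 35.65 to 88.8 and from 57.7 to 101. All of these core genes were higher in the both-high cells of both libraries.

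In H2B the leading gene went the other way. H2bc4 went from 527 to 151.5 CPM in KO-labelled and from 344 to 150.4 in WT-labelled cells, ratios of 0.2875 (0.267 to 0.310) and 0.437 (0.3685 to 0.515). Its share of the histone UMIs was 38.6% and 31.0% in the both-0 cells and 3.58% and 3.31% in the both-high cells. H3f3b, a replacement H3 gene expressed throughout the cycle and no member, was at 3904 CPM in KO-labelled cells with 0 replication UMIs and 4098 in those with 5 or more, and at 2555 and 2969 in WT-labelled cells.

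**Figure D3:**
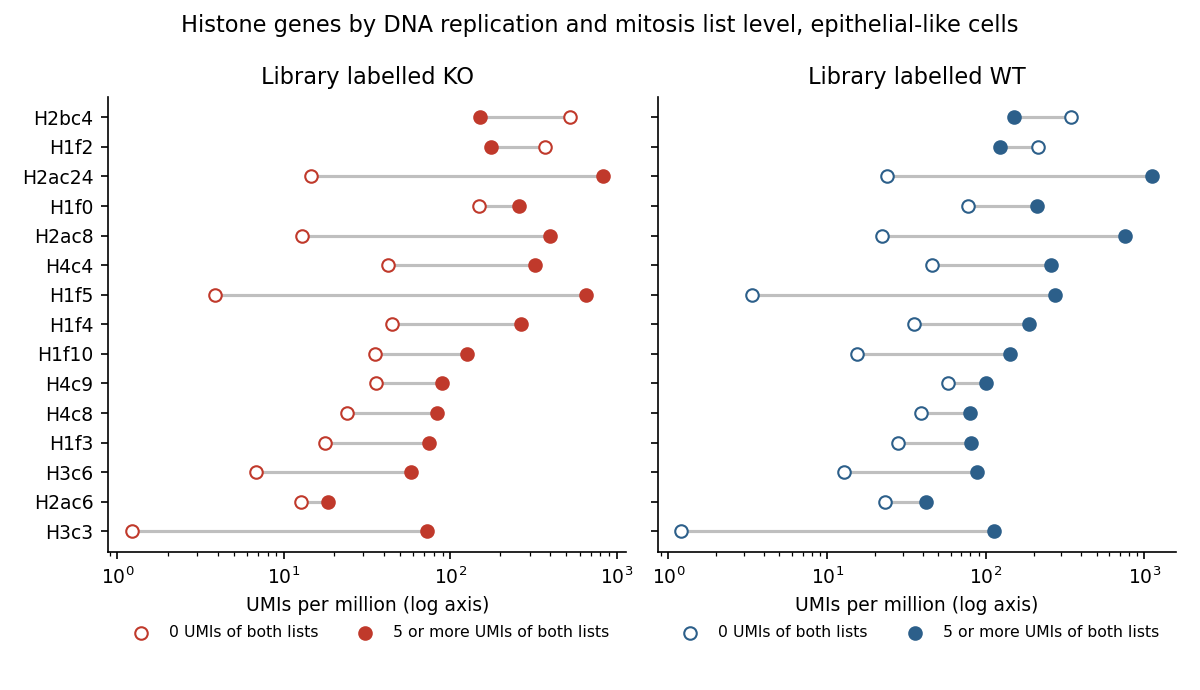
The 15 histone genes with the most UMIs in epithelial-like cells, in CPM on a log axis, left for the KO-labelled and right for the WT-labelled library. Open circles are both-0 cells and filled circles both-high cells; in each panel the filled circles of H2bc4 and H1f2 lie to the left of the open ones and those of the other 13 genes to the right.

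By the replication list alone, 254 KO-labelled and 108 WT-labelled cells had 5 or more UMIs and 750 and 702 had 0. Of these, 72 and 36 had exactly 5, and 91 and 59 further cells had 4. In KO-labelled cells 48 of 57 members with at least 10 UMIs were past 1.5-fold higher and 3 lower, where 14.4% of all genes were higher and 22.7% lower. In WT-labelled cells it was 36 of 53 and 7, against 17.8% and 20.2%. The median log2 ratio of these members was 2.44 and 1.40, and that of all genes -0.09 and 0.01. In both libraries 33 of 53 were higher, and 3 lower, which were H2bc4, H1f2 and H3c15, an H3 gene. The share of all genes past this fold in both libraries was not taken, so this overlap is a description. In WT-labelled cells H3c15 rests on 5 against 39 UMIs, a ratio of 0.495 whose interval, 0.152 to 1.26, holds 1.

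Among families, H4 had 11 of 12 genes higher in KO-labelled cells and 3 of 12 in WT-labelled cells. The WT-labelled cells with 0 replication UMIs held 129 of 702 cells from an H4-rich cluster led by Duox2, which is described below. Without that cluster, an alternative chosen after seeing the data, the summed H4 level of the 0 group went from 187 to 139 CPM and 9 of 12 H4 genes were higher. Over all families, 44 of 53 members were then higher and 5 lower in WT-labelled cells (17.3% and 18.9% of all genes), and 49 of 57 and 3 in KO-labelled cells (14.5% and 22.7%).

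With all clusters kept, the H2A genes past 1.5-fold higher by the replication list numbered, in KO-labelled and WT-labelled cells, 12 of 13 and 9 of 11, and the H2B genes 12 of 15 and 11 of 13. Members whose model ends within 100 bases of the stem-loop, as H2ac24 does, were higher in 20 of 20 and 13 of 19 cases, with median log2 ratios of 2.92 and 1.95. Those whose model runs on, as in H1f2, were higher in 9 of 14 and 8 of 14, with medians of 1.67 and 0.77. Members with no match to the element were higher in 19 of 23 and 15 of 20, with medians of 2.73 and 1.44. By the mitosis list the no-match members had medians of 3.68 and 1.84, against 2.78 and 1.87 where the model ends soon after the element.

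By the mitosis list, the summed level was 2914 CPM in KO-labelled cells with 5 or more UMIs and 1297 in those with 0, and 3033 and 1048.5 in WT-labelled cells. Of 59 and 58 members covered, 51 and 41 were past 1.5-fold higher (12.0% and 14.5% of all genes) and 3 and 3 lower (24.4% and 23.3%). Without the Duox2-led cluster the WT-labelled counts were 49 of 58 and 1 (14.3% and 22.4%), with 10 of 12 H4 genes higher against 5 with it. With this list H2bc4 was at 257 against 478 CPM in KO-labelled cells and at 331 against 328 in WT-labelled cells, so its lower level in the high cells was seen in the KO-labelled library and not in the other.

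Promoters were read from RefSeq (GRCm38.p6), which matched 55 of the 61 members and 62 of the 70 genes with such symbols, with 63 promoters. Motifs were searched on both strands in the 300 bases from 250 before to 50 after the start. The TATA box letters TATAAA were in 54.0% of the histone promoters and 13.6% of all 32851, the CCAAT box letters CCAAT in 82.5% and 37.4%, and the octamer ATTTGCAT, known from H2B promoters, in 20.6% and 1.735%. CCAAT was in every H2A, H2B and H3 promoter of the table, in 70% of those of H1 and in 27.3% of those of H4. The octamer was in 46.7% of the H2B and 35.3% of the H2A promoters and in none of the table's H1, H3 or H4 promoters. H2bc4, H2bc21, H2bc24, H3c1, H3c7 and H4c14 had no entry. The promoters below are shown because H1f5 and H2ac8 were higher in the both-high cells and H1f2 was lower, and motif matches on either strand are in capitals.
H1f5 (chr13:21780576-21780875, minus strand): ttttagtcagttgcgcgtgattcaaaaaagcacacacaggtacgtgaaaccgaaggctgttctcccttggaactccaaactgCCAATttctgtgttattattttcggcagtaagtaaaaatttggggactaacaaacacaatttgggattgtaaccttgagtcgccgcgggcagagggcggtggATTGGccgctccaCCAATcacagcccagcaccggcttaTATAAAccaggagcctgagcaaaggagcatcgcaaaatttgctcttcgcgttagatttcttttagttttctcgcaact
H2ac8 (chr13:23571171-23571470, minus strand): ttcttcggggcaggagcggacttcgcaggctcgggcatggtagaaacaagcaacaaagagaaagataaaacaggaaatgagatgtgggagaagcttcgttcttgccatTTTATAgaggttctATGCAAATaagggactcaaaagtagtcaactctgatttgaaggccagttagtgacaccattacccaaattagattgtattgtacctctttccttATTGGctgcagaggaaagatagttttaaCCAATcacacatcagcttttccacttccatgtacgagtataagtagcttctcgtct
H1f2 (chr13:23738557-23738856, plus strand): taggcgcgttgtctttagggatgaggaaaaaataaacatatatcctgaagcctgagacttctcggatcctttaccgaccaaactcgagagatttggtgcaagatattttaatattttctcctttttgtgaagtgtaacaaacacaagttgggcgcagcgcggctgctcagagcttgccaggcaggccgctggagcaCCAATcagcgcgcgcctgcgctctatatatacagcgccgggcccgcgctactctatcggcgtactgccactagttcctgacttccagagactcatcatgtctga
The H1f5 promoter holds the TATA and CCAAT letters, that of H2ac8 these and the octamer, and that of H1f2 CCAAT alone of the motifs searched. In H2ac8 both the TATA letters and the octamer are on the opposite strand. Whether opposite-strand matches, here or in the shares above, belong to a neighbouring gene was not tested. The H1f2 promoter has a short run of alternating T and A, which the exact search does not count. A match describes letters, not a bound site.

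Between the libraries, the question was how histone genes differ where Cre is present in the epithelium. The summed level of epithelial-like cells was 1.15 (1.14 to 1.16) times that of the WT-labelled library. Of 8 epithelial-like clusters with at least 20 cells in both libraries, 3 had a ratio whose interval lay above 1. In 1 cluster the interval lay under 1, and in 4 it held 1. The ratio was 0.893 in one led by Muc3 and Adh1 (253 and 36 cells). It was 1.55 in one led by Pnliprp2 and Sox11 (308 and 273). In the class as a whole, 3 of 61 members were past 1.5-fold higher and 24 lower, where 11.8% of 20032 genes were higher and 24.1% lower. The median log2 ratio of the members was -0.42 and that of all genes -0.09. The 10 neutrophil markers stood at 125 CPM in KO-labelled and 903 in WT-labelled epithelial-like cells, all 10 past 1.5-fold lower and none at 0, and their part in the histone counts was not tested. The abundant members lay higher than the scarce ones: of 17 with at least 1000 UMIs, 2 were higher and 1 lower, with a median of 0.12. Of 33 with at least 100 and under 1000, 1 was higher and 15 lower, with a median of -0.498. Of 11 with under 100, 0 were higher and 8 lower, with a median of -0.94. All genes at these depths, from the most UMIs to the fewest, had medians of 0.0350, -0.114 and -0.48. In the same order, 768 of 8441, 600 of 5360 and 997 of 6231 genes were higher, and 638, 1310 and 2876 lower.

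The 3 higher genes were linker histones. Giving KO-labelled against WT-labelled levels, as in all comparisons of the libraries below, H1f5 stood at 119 against 32.4 CPM, a ratio of 3.68 (3.44 to 3.95). H1f1 stood at 9.935 against 4.43, a ratio of 2.24 (1.85 to 2.74), and H1f4 at 89.8 against 50.6, a ratio of 1.77 (1.67 to 1.88). H1f2, at 269 against 181, was just under 1.5-fold. Lower were 7 of 15 H2A genes, 6 of 15 H2B genes, 2 of 11 H3 genes, 8 of 12 H4 genes and 1 of 8 H1 genes. H4c18 stood at 0.632 against 5.55 CPM, H4c17 at 0.772 against 4.81, H2ac7 at 0.860 against 3.06, H4c3 at 3.63 against 10.5 and H2ac18 at 6.51 against 16.3. Of the 27 members that share at least 50% of their windows 16 were lower, and of the other 34, 8. The sharing members were also scarcer, with a median of 223 UMIs over both libraries against 925. Scarcer genes lay lower in general, and the part of abundance in this split was not tested.

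**Figure D4:**
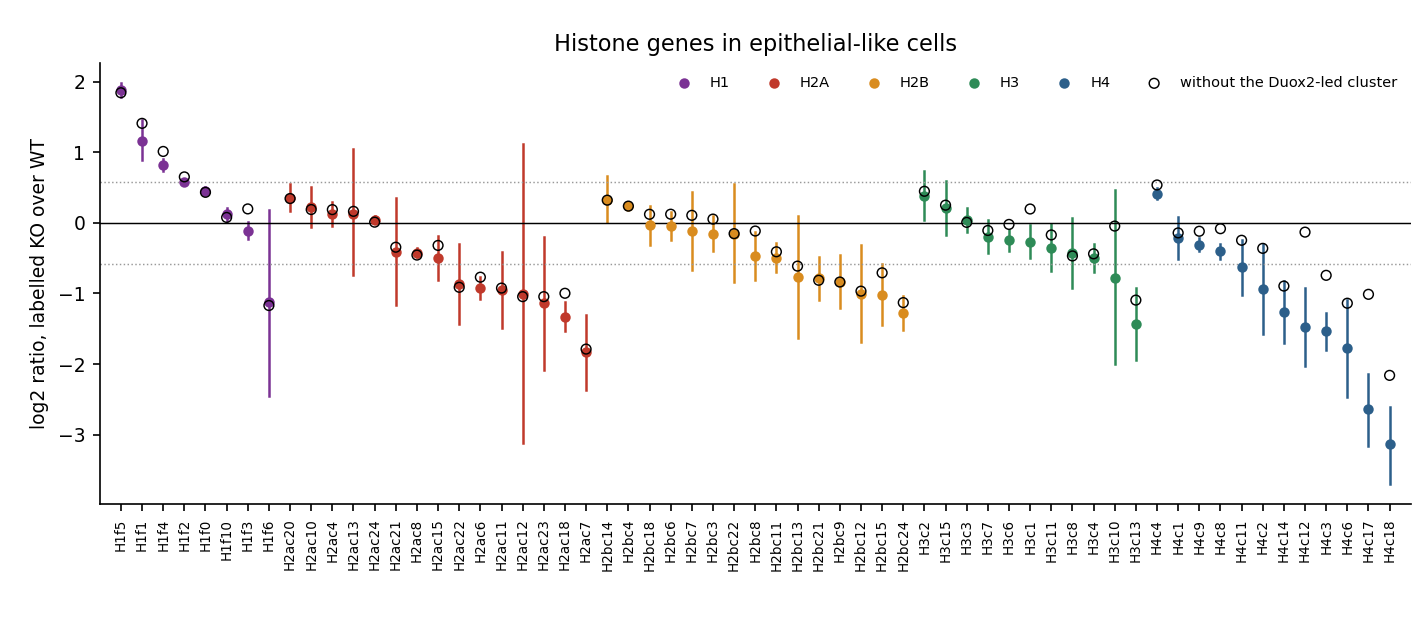
Log2 ratio of each of the 61 histone genes in epithelial-like cells, KO-labelled over WT-labelled, grouped and coloured by family, with exact 95% counting intervals and dotted lines at 1.5-fold. Open circles leave out the Duox2-led cluster; H1f5, H1f1 and H1f4 lie above the upper line, and H4c17 goes from 0.160 to 0.496 as a ratio.

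A cluster of epithelial-like cells that lay almost wholly in the WT-labelled library stood apart. Duox2 and Duoxa2, which make hydrogen peroxide at mucosal surfaces, were among its leading genes, and it held 351 WT-labelled cells (18.6% of the class) and 17 KO-labelled ones. The histone genes had been left out of the clustering. Levels in it are given against the other WT-labelled epithelial-like cells. Its summed histone level was 3685 CPM, against 1473 in the other WT-labelled epithelial-like cells, a ratio of 2.50 (2.41 to 2.59). The replication list was at 209 against 901 and the mitosis list at 119.9 against 1211.5, so both were lower where the histone level was higher. Of 60 members covered, 46 were past 1.5-fold higher and 9 lower, where 39.7% of all genes were higher and 34.3% lower.

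In that cluster all 12 H4 genes were past 1.5-fold higher. H4c17 was at 106 against 1.56 CPM, H4c3 at 155 against 5.91, H4c8 at 286 against 31.5 and H4c9 at 286 against 51.7. Of the linker genes, H1f3 was at 215 against 24.4, H1f2 at 471.5 against 171 and H1f5 at 5.65 against 33.25. Of genes that were higher in the both-high cells, H2ac24, at 55.4 against 177, H2ac8, at 29.4 against 111, and H3c3, at 4.52 against 16.3, were lower here, as H1f5 was, whereas H4c8, H4c9 and H1f3 were higher here too. H2bc4, at 369.7 against 338, was within 1.5-fold. A histone UMI was in 96.3% of the cells, and the 5 richest held 6.72% of these UMIs. The cells were shallow, with a median of 2126 UMIs against 15176, and 11.7% of their UMIs were mitochondrial against 1.69%. RNA without a poly(A) tail or from ribosomal RNA summed to 22502 CPM against 2313, and the 10 neutrophil markers to 4766 against 779. Their part in the histone level was not tested.

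**Figure D5:**
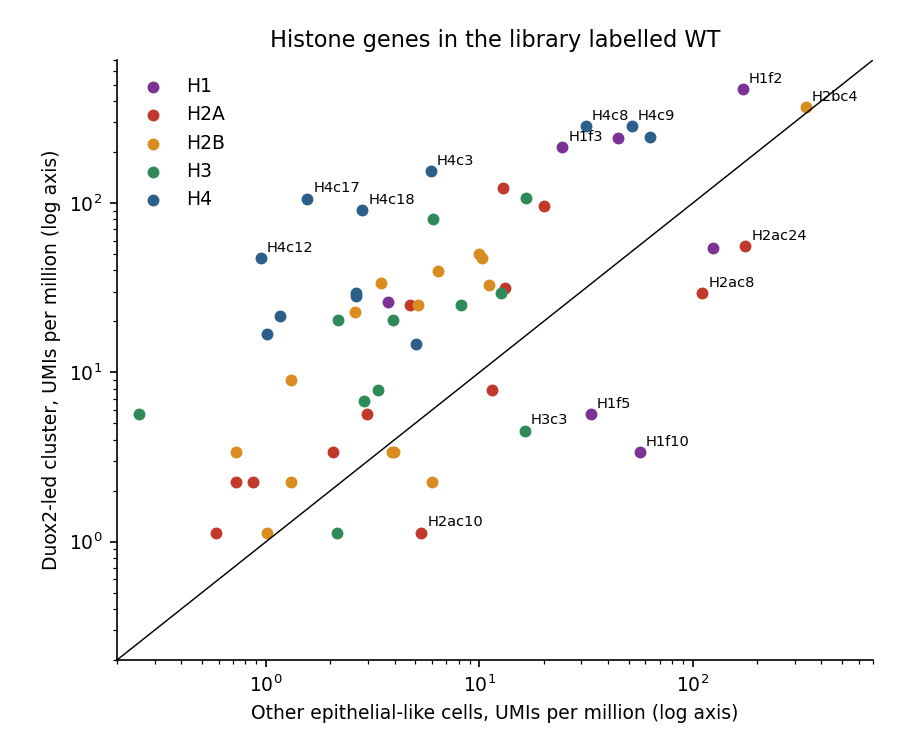
Histone genes in the Duox2-led cluster (vertical axis) against the other epithelial-like cells (horizontal axis) of the WT-labelled library, in CPM on log axes. Genes are coloured by family, and the line marks equal levels. H2ac12, H2ac22 and H1f6, with 0 UMIs in the cluster, are not drawn. The H4 genes lie above the line, and H2ac24, H2ac8, H3c3 and H1f5 below it.

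Without this cluster, an alternative chosen after seeing the data, 4 members were past 1.5-fold higher in KO-labelled epithelial-like cells (11.9% of all genes) and 20 lower (23.0%), and 20 of the lower ones were among the 24. The members' median log2 ratio was -0.14. H1f2 joined the higher genes at 1.57 (1.52 to 1.62). H4 went from 8 lower genes to 5, with H4c18 going from 0.114 to 0.224 and H4c12 from 0.360 to 0.913. With each cell weighted equally the summed ratio was 0.873 with the cluster and 1.12 without it.

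The libraries also differed within cells of like state. In the both-high cells the summed ratio, KO-labelled over WT-labelled, was 0.930 (0.901 to 0.961), with H1 at 1.55 (1.45 to 1.66) and H2A at 0.659 (0.629 to 0.691). There H1f5 was at 657 against 274 CPM, a ratio of 2.40 (2.12 to 2.72), and H2ac8 at 396 against 758, a ratio of 0.522 (0.480 to 0.568). H2ac24 was at 828 against 1123 and H3c3 at 72.7 against 112.5. Of the linker genes, H1f10, at 0.894 (0.744 to 1.08), and H1f3, at 0.931 (0.7305 to 1.198), had ratios whose intervals hold 1. H1f5 was thus higher and the core genes H2ac8, H2ac24 and H3c3 lower in KO-labelled both-high cells. None of the Duox2-led cluster's cells was in that state.

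The 221 and 149 cells with 5 or more mitosis UMIs and under 5 replication UMIs had a summed ratio of 0.8205 (0.802 to 0.839). Here the H1 family was at 1.03 (0.991 to 1.07), with H1f5 at 2.08 (1.87 to 2.33), H1f0 at 0.771 (0.7185 to 0.828) and H1f10 at 0.698 (0.631 to 0.7715), and H2A at 0.640 (0.614 to 0.6665). In the 126 and 71 cells with 5 or more replication UMIs and under 5 mitosis UMIs, H1 was at 1.73 (1.58 to 1.89) and H2A at 0.797 (0.734 to 0.866). The H1 ratio thus differed between states, with an interval that holds 1 in the mitosis-high cells, while the H2A ratio was under 1 in each of these 3 states.

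In the both-0 cells H1f5 was at 3.88 against 3.34 CPM, a ratio of 1.16 whose interval, 0.706 to 1.955, holds 1. H1f2 was at 369 against 213, a ratio of 1.73 (1.64 to 1.83), and H2bc4 at 527 against 344, a ratio of 1.53 (1.46 to 1.60). H2A was at 0.533 (0.480 to 0.592), with H2ac8 at 0.583 (0.468 to 0.726) and H2ac24 at 0.614 (0.498 to 0.756), so these were lower here as in the both-high cells. Leaving out the Duox2-led cluster, the ratios were 1.85 for H1f2, 1.54 for H2bc4, 0.595 for H2ac8 and 0.642 for H2ac24. The summed H4 level of WT-labelled both-0 cells went from 190.2 to 130.4 CPM without it. Among epithelial-like cells of at least 2000 UMIs, 12.05% (10.7 to 13.5) of KO-labelled and 6.83% (5.63 to 8.18) of WT-labelled cells had 5 or more replication UMIs.

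By family over the classes, H1 was higher in the KO-labelled library in 6 of 7, with ratios of 1.56 in epithelial-like, 1.94 in monocyte/macrophage-like, 1.86 in T-like, 1.97 in B-like, 3.89 in plasma-like, 2.05 in mast-like cells, and 0.840 (0.6425 to 1.08) in neutrophil-like cells. H2A had ratios of 0.8795 in epithelial-like, 1.73 in monocyte/macrophage-like, 0.336 in T-like, 0.644 in B-like, 1.075 in plasma-like, 0.731 in mast-like cells, and 0.574 (0.315 to 0.970) in neutrophil-like cells. H2A was thus under 1 in 5 classes, above 1 in monocyte/macrophage-like cells and close to 1 in plasma-like cells. These comparisons share the 2 libraries.

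In monocyte/macrophage-like cells, the phagocytes of the tumour, the summed level was 792 against 424 CPM, a ratio of 1.87 (1.78 to 1.96), with 18 of 42 members higher and 4 lower (20.0% and 21.4% of all genes). H1f5 was at 68.3 against 12.2, H4c4 at 62.1 against 19.9 and H2bc4 at 135 against 53.8, while H1f10, a linker variant, was at 16.65 against 26.6. Without the 5 richest cells of each library the counts were 10 higher and 7 lower. The shares of all genes without those cells are not given, so these counts are descriptions. The mitosis list stood at 577 against 226 CPM, with 21 of 22 genes past 1.5-fold higher. The epithelial markers summed to 907 against 233 CPM, with 9 of 10 higher and none at 0, and their part in the histone level was not tested. The summed ratio was 1.34 in a cluster led by Chil3 and Inhba (215 and 830 cells), 1.90 in one led by Apoe and C1qc (144 and 294), and 0.774 in one led by C1qb and C1qa (130 and 40).

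Plasma-like cells, which secrete antibody, had 1377.5 against 722 CPM, with 12 of 30 members higher and 4 lower (22.1% and 25.1% of all genes). H1f2 was at 411 against 91.2, a ratio of 4.50 (3.745 to 5.45), and H1f5 at 71.1 against 5.49, from 145 and 8 UMIs. H4c9 had the opposite direction, at 60.8 against 97.4. The mitosis list stood at 654 against 162, with 22 of 22 genes higher, and the 10 epithelial markers at 1319 against 484, with 9 higher and none at 0. The 10 neutrophil markers stood at 62.2 against 2865, with all 10 lower. Their part in the histone level was not tested.

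T-like cells had 802 against 829.5 CPM, with 6 of 36 members higher and 17 lower (13.2% and 28.5% of all genes). H1f2 was at 197 against 92.6 and H1f4 at 105 against 51.65, while H2ac24 was at 34.9 against 126 and H2ac8 at 15.4 against 69.4. Over the class, the linker genes named were higher and the H2A genes named lower in the KO-labelled library. In the 52 and 157 T-like cells with 0 UMIs of both lists, the H2A ratio was 1.08 (0.378 to 2.74), an interval that holds 1. The summed ratio of those cells was 1.77 (1.40 to 2.22). By cluster it was 0.935 in one led by Penk and Foxp3, 1.45 in one led by Tnfsf8 and Cd28 and 0.706 in one led by Il17a and Trdc. In the whole class the mitosis list was at 463 against 544, and the epithelial markers at 477 against 258, with 7 of 10 higher. The part of these in the histone counts was not tested.

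B-like cells had 3 of 15 members higher and 5 lower (15.6% and 28.3% of all genes). H1f4 was at 218 against 52.2 CPM and H2bc4 at 61.05 against 174. The neutrophil markers summed to 2939 against 595.5 CPM in this class, with 7 of the 7 covered higher. Mast-like cells had 4 of 29 members higher and 10 lower (31.6% and 25.4% of all genes), with H1f5 at 216.5 against 51.7 and H2ac6, a core H2A gene, at 4.33 against 29.99. The epithelial markers summed to 7419 against 702 CPM in mast-like cells, with 10 of 10 higher and none at 0, and the mast cell markers to 69811 against 120494. The part of these markers in the histone counts of both classes was not tested. The mast-like summed ratio of 1.10 (1.00 to 1.195) was 0.755 without the 5 richest cells of each library. Neutrophil-like cells had 4 of 15 members higher and 2 lower (22.3% and 26.4% of all genes), with H2ac18 at 8.22 against 28.35 from 5 and 128 UMIs, and a summed ratio of 0.9765 (0.848 to 1.12).

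Counting only genes with at least 50 UMIs, 3 members were higher and 20 lower in epithelial-like cells (10.3% and 16.8% of all genes). The counts were 8 and 2 in monocyte/macrophage-like (15.8% and 17.4%), 4 and 5 in T-like (11.0% and 23.2%) and 1 and 1 in B-like cells (11.0% and 19.6%). They were 7 and 1 in plasma-like (18.3% and 20.4%), 3 and 0 in mast-like (29.1% and 22.8%) and 0 and 1 in neutrophil-like cells (13.5% and 28.7%). With a 2-fold limit and at least 10 UMIs, the counts higher and lower were 2 and 15 in epithelial-like (4.34% and 14.3% of all genes), 13 and 1 in monocyte/macrophage-like (9.79% and 10.5%) and 3 and 13 in T-like cells (4.37% and 14.6%). They were 3 and 5 in B-like (5.63% and 13.5%), 10 and 1 in plasma-like (11.1% and 12.2%), 4 and 9 in mast-like (19.6% and 14.6%) and 1 and 2 in neutrophil-like cells (10.3% and 14.4%). With at least 50 UMIs the count of lower T-like members went from 17 to 5.

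Gene by gene, H1f4 was past 1.5-fold higher in 5 of 7 classes, and H1f5, H1f2, H1f0 and H4c4 in 4 of 7, and these 5 genes were past that fold lower in none. H2ac18 was lower in 5 of 6 classes, H2bc24, an H2B gene, in 4 of 6 and H3c4, an H3 gene, in 4 of 5, and these were higher in none. The share of all genes with such runs was not taken, and the classes share 2 libraries. Some calls rest on few UMIs, with intervals that hold 1. Among them were H3c4 (0.327 to 1.27) and H2bc24 (0.157 to 1.49) in monocyte/macrophage-like cells and H1f0 (0.5385 to 3.915) in neutrophil-like cells. Rn18s-rs5, a ribosomal RNA gene, stood at 14434 against 2701 CPM in epithelial-like and 61344.5 against 5026 in neutrophil-like cells, and it was higher in the KO-labelled library in all 7 classes. It made up most of a list of RNA without a poly(A) tail or from ribosomal RNA, which summed to 14858 against 2940.3 in epithelial-like cells. By gene, 3 of the list's 8 covered genes were higher and 2 lower in epithelial-like cells, with a median log2 ratio of -0.05, and 3 and 2 of 7 in T-like cells, with a median of -0.48. Its part in the histone ratios was not tested.

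Genes around histone supply were measured beside the members in epithelial-like cells. Of 14 genes of histone mRNA processing 1 was past 1.5-fold higher in the KO-labelled library and 0 lower, with a sum of 612 against 556 CPM, and Slbp was at 78.0 against 98.8. Of 18 histone chaperones, which carry histones to DNA, 2 were higher and 0 lower, with Npm1 at 1457 against 980. Of 9 replication-independent histone genes 1 was higher and 0 lower, with H3f3b at 3985 against 2816. Of 28 replication genes 11 were higher and 1 lower, with Pcna at 140.4 against 137 and Mcm7 at 83.5 against 62.2. Of 22 mitosis genes 5 were higher and 0 lower, with Top2a at 192 against 137.

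Across 17 library and class points with at least 50 cells, the summed histone level was most like Shcbp1 and Ccnb1 among 9860 genes, with a Pearson r of 0.911 each on log2 levels, followed by Uchl3, Aaas, Zfp553, Fpgs, Alad, Spc25, Ncaph and Cdc20 down to 0.8845. The mitosis list had 0.894 and the replication list 0.782. Of the members, H4c4 had 0.91 with the replication list, H1f3 0.90 and H2ac24 0.90, whereas H2bc4 had 0.20, H2bc6 -0.22 and H2ac18 -0.26. The points share 2 libraries and differ in depth, so these values are descriptions.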

How the data were processed

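Single-cell RNA of mouse colon tumours was analysed in 2 libraries, 1 per genotype. The deposited matrices hold raw UMI counts per gene and barcode, made by the authors with Cell Ranger 7.2.0, per the file headers. The build was GRCm39, per the submitters' processing notes. Capture chemistry is not given in the sources used here, and the labels' protocol describes bulk RNA.

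Kept were barcodes of at least 200 genes and less than 20% mitochondrial UMIs. Scrublet's automatic threshold marked 0.0456% and 0% of barcodes and had not worked, so the highest scores were removed at 0.8% per 1000 barcodes (154 and 633). Clustering took both libraries at once, with no integration, and used 2000 variable genes that exclude the histone genes and the lists used to sort cells, with 30 components, 15 neighbours and Leiden resolution 1. The 31 clusters took names from 22 marker lists, each needing at least 3 detected markers, and 2 clusters (272 and 592 cells) stayed unnamed. Differences may come from these rebuilt names.

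UMIs were summed per class and library and divided by the class total (CPM). Levels have exact Poisson, ratios exact conditional binomial and shares Clopper-Pearson intervals. Genes with at least 10 summed UMIs entered a count, and one at 0 in a group had a floor of 3 counts. The members and lists were chosen with earlier results of these data known. Named were the 15 members with the most UMIs, the 5 in each class furthest past 1.5-fold in each direction with at least 20 UMIs, the 3 leading genes of each list and the 10 genes most like the sum. Other genes were named after their values were seen. The interval code was tested on simulated data. Python 3.11.15, scanpy 1.11.5, numpy 2.4.6 and scipy 1.17.1 were used.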

Additional observations from a re-analysis of the deposited data

How the results depend on the processing

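No paired analysis was possible because each genotype has 1 library. The summed ratio, KO-labelled over WT-labelled, stayed above 1 in all 10 alternatives in monocyte/macrophage-like cells (1.225 to 2.02) and all 9 in plasma-like cells (1.53 to 2.37). It crossed 1 in 1 of 12 in epithelial-like cells and in 2 or 3 alternatives in each of T-like, B-like, mast-like and neutrophil-like cells. With each cell weighted equally it was 0.873 in epithelial-like, 1.77 in monocyte/macrophage-like, 1.38 in T-like and 1.38 in mast-like cells. Without the Duox2-led cluster, chosen after seeing the data, it was 1.204 in epithelial-like cells, and 1.12 with each cell weighted equally. Without the 5 richest cells of each library it was 1.17 in epithelial-like, 1.60 in monocyte/macrophage-like and 0.755 in mast-like cells, and the monocyte/macrophage-like counts were 10 higher and 7 lower. Leiden resolution 2 gave 0.454 in mast-like and 2.37 in plasma-like cells. Equal weight per cluster gave 1.12 in epithelial-like and 1.225 in monocyte/macrophage-like cells, and leaving out H1f0 and H1f10 gave 1.13 and 2.02. Without the mitochondrial filter it was 1.125 in epithelial-like cells. Without the member with the most UMIs it was 0.821 in T-like, 1.53 in plasma-like and 0.808 in neutrophil-like cells. Without doublet removal it was 1.74 in monocyte/macrophage-like and 0.830 in neutrophil-like cells, with 8 members lower in B-like and 8 higher and 5 lower in neutrophil-like cells. For the counts of members in this paragraph the shares of all genes are not given, so these counts are descriptions.

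Past 2-fold, 15 members were lower in epithelial-like (14.3% of all genes), 1 lower in monocyte/macrophage-like (10.5%), 3 higher in T-like (4.37%), 1 lower in plasma-like (12.2%) and 1 higher in neutrophil-like cells (10.3%). With at least 50 UMIs, from fewer genes, the counts higher and lower were 8 and 2 in monocyte/macrophage-like, 1 and 1 in B-like, 7 and 1 in plasma-like and 0 and 1 in neutrophil-like cells, with 5 lower in T-like and 0 in mast-like cells. The replication ratio was 1.74 and 1.945 with 3 or more UMIs of 2000, and 1.99 and 1.65 with 3 or more of 1000, and 2.44 in the WT-labelled library without the Duox2-led cluster. The share of cells with a histone UMI was 50.25% and 52.1% in epithelial-like and 20.4% and 17.5% in neutrophil-like cells at 500 UMIs, and 97.98%, 96.35%, 60.2% and 45.2% without thinning. Except where the construction is named, the cause was not tested.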
